A study of Mus musculus with 18 samples.

Results

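Nox4, the gene of an NADPH oxidase that makes hydrogen peroxide, and 9 genes of antioxidant enzymes were followed in primary mouse embryonic fibroblasts treated with TGF-β1. The enzymes were catalase (Cat), the superoxide dismutases Sod2 and Sod3, haem oxygenase 1 (Hmox1), the quinone reductase Nqo1, both subunits of glutamate-cysteine ligase (Gclc and Gclm), thioredoxin reductase 1 (Txnrd1) and sulfiredoxin 1 (Srxn1). The genes were taken by name. Every probe set whose single symbol in the array annotation was one of the 10 names was used, which gave 23 probe sets, 1 to 4 per gene, and each gene was led by its brightest one by the mean over the 18 arrays. They were 10 of 18194 genes with a single-symbol probe set. All 10 were among the 13679 genes tested, those whose brightest probe set exceeded the 40th percentile of an array on 3 or more arrays. The leading probe set of each of the 10 did so on all 18.

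After 10 h of TGF-β1, Nox4 rose 1.96-fold in wild-type cells and 1.77-fold in cells labelled knock-out, while Cat fell 1.72-fold and 1.66-fold. Nqo1 fell 2.66-fold and 2.55-fold, with a wide spread between embryos. The best-known targets of the factor NRF2 gave mixed results. Nqo1 was lower, Txnrd1 was higher in the labelled knock-out, Gclc was slightly higher in wild type, and Hmox1, Gclm and Srxn1 did not pass the test in either genotype. After 1 h none of the 10 genes passed, and no difference between the genotypes was detectable for any of them.

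NOX4 differs from the other NADPH oxidases in releasing mostly hydrogen peroxide without an activating signal, so that its output follows the amount of the protein, and in fibroblasts it is known as a TGF-β-induced source of oxidants. Catalase breaks hydrogen peroxide down in peroxisomes, SOD2 and SOD3 turn superoxide into hydrogen peroxide in mitochondria and outside the cell, and the glutathione and thioredoxin systems reduce peroxides and oxidised proteins with electrons from NADPH. Many of these enzymes are transcribed through the antioxidant response element, a short DNA motif bound by NRF2 together with a small MAF protein, which the factor BACH1 can occupy in its place and which KEAP1 limits by marking NRF2 for breakdown.

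The cells were grown from 14-day-old embryos after the head and liver had been taken away, with 3 embryos of wild type and 3 whose label is knock-out for nuclear factor I-C, a transcription factor that binds the motif TTGGC. The labels do not describe the allele. All cultures stood for some hours in medium with an albumin supplement, insulin, transferrin and selenium. Cells of each embryo then stayed without TGF-β1 or had it at 12.5 ng/ml for 1 h or 10 h, to examine the early and the delayed response to this growth factor. This gave 6 groups of 3 Affymetrix arrays, each array from a separate embryo of its group. Values are log2 expression; differences carry the standard error from limma, n is 3 embryos per group, and a gene is said to rise or fall where the Benjamini-Hochberg adjusted p over all tested genes was under 0.05. These are bulk RNA samples, so fewer cells of a type and less RNA per cell cannot be told apart. Untreated cells held for 10 h were not analysed here, so each 10 h change compares TGF-β1 and time in culture together. Within a genotype both responses use the same untreated arrays.

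Some arrays stood apart. On the 10 h array of knock-out embryo 1, 157 genes lay more than 1 log2 unit above both other arrays of their group. They were led by Ccl3 (11.52 against 3.76 and 4.03), Saa3 and Acod1, genes of inflammatory activation. Such counts on the untreated, 1 h and 10 h arrays of wild-type embryo 1 were 151, 141 and 115. On the 10 h array of wild-type embryo 2, 196 genes lay more than 1 log2 unit below both others. Of the 10 genes followed here 7 were highest in their group on the 10 h array of knock-out embryo 1. Sod2, Sod3 and Gclm were so by more than 1 log2 unit. On the untreated array of that embryo 6 of the 10 were highest, and the share over all tested genes was not computed. In wild type the deviations of the 10 h arrays of embryos 2 and 3 from their group mean correlated with those of the untreated arrays of the same number at -0.06 and -0.20, against 0.282 to 0.487 for the other 4 embryos. With those 2 arrays exchanged the values were 0.439 and 0.382. Results that rest on these arrays are given with and without them. Nfic itself read 10.36 to 10.51 in untreated wild type and 9.89 to 10.72 in untreated labelled knock-out, so the genotype is given as labelled. The 10 fibroblast markers lay above the 40th percentile on all arrays, with a list mean of 11.83 to 12.04 in untreated wild type and 11.33 to 11.54 at 10 h, and of 11.51 to 11.84 and 11.23 to 11.51 in the labelled knock-out. At 10 h 2 of the 10 were called lower in wild type, beside 18.8% of all tested genes. In the labelled knock-out 1 was, beside 20.7%. The epithelial list mean was 4.43 to 4.70 untreated and 4.78 to 5.14 at 10 h in wild type, and 4.57 to 4.61 and 4.89 to 5.12 in the labelled knock-out. The neural and glial list mean was 6.71 to 6.84 and 7.02 to 7.15, and 6.74 to 6.86 and 6.94 to 7.16. The fibroblast list mean was thus lower and the other 2 higher at 10 h, and their part in the members' 10 h differences was not tested. Like the fibroblast markers, all 12 macrophage markers lay above the percentile on all arrays, with a list mean per array of 10.64, 9.10 and 8.999 in untreated wild-type embryos 1, 2 and 3 and 9.97, 8.24 and 8.70 in the labelled knock-out. After 10 h it was 10.46, 8.58 and 9.11 and 9.89, 8.12 and 8.70. Embryo 1 was the highest in both genotypes at each time. Of 8 endothelial markers 3 lay above the percentile on all arrays (Kdr, Esam and Egfl7) and 3 on none (Pecam1, Tek and Tie1). Of 6 muscle markers 2 did so on all arrays (Des and Actc1) and 2 on none (Myod1 and Myf5). Of 4 erythroid markers 0 did so on all arrays, Klf1 did on 14 and Hba-a1 on none. The cells responded to TGF-β1 at 1 h: the feedback gene Smad7 rose from 7.06, 7.16 and 6.87 to 8.91, 8.92 and 8.89 in wild type, and Smad7, Skil and Ccn2 rose in both genotypes at both times.

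Promoters were read because NRF2, SMAD and NFI proteins act through short DNA motifs, so that the windows of the genes that moved can be set beside that of a gene that did not. RefSeq windows (assembly GRCm38.p6) of the 250 bases before the start of transcription were found for 7 of the 10 genes, 9 windows in all. The motifs searched on both strands were the core of the antioxidant response element TGANNNNGC (in 35.2% of 32851 promoter windows of the same length), the SMAD-binding CAGACA (17.1%), the SMAD palindrome GTCTAGAC (0.167%), the NFI core TTGGC (41.5%), the full NFI palindrome, which joins the core to its mirror image (0.0365%), and the AP-1 site TGANTCA (6.75%). Capitals mark matches on either strand, and distances run from the first base of the match to the start. The Nox4 window (chr7:87246399-87246648, plus strand) held CAGACA on the opposite strand at 142 bases. The Cat window (chr2:103485154-103485403, minus strand) held the NFI core at 56 bases, and the Nqo1 window (chr8:107403206-107403455, minus strand) at 130 bases, both on the opposite strand. A Txnrd1 window (chr10:82858956-82859205, plus strand), 1 of 3 for this gene, held the antioxidant response core at 92 bases. The Srxn1 window (chr2:152105274-152105523, plus strand) held it at 158, 57 and 45 bases, with AP-1 sites at 102 and 45 bases, the latter inside the match at 45, and the NFI core at 203 bases.
Nox4: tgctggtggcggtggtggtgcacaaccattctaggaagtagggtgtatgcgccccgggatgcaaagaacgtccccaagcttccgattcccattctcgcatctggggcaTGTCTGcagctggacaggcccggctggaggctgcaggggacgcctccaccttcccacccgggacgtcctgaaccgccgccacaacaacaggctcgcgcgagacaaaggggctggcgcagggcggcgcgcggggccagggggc
Cat: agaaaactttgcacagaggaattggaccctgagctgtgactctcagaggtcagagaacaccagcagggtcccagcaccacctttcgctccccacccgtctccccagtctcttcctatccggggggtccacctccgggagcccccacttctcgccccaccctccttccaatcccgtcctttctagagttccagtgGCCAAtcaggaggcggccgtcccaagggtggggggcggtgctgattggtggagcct
Nqo1: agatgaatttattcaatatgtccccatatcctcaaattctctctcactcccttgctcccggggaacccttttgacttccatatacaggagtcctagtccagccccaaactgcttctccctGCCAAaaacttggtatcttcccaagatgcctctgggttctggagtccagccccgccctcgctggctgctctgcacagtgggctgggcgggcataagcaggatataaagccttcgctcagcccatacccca
Txnrd1: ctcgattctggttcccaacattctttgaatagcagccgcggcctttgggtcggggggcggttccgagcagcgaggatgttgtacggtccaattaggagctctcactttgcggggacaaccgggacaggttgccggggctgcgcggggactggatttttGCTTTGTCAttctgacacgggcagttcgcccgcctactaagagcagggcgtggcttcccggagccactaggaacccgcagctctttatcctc
Srxn1: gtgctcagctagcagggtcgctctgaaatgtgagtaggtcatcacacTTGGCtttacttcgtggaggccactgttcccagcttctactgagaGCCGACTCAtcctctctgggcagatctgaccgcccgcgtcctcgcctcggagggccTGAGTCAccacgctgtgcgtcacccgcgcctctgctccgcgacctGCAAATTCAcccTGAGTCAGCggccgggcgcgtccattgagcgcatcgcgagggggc
Of the other windows, that of Gclm held the antioxidant response core at 134 bases and the NFI core at 157. The Sod2 window held 3 NFI cores, at 214, 60 and 7 bases. The other 2 Txnrd1 windows held the NFI core at 151 bases and the antioxidant response core at 84. None of the 9 windows held GTCTAGAC or the full NFI palindrome. The gene whose window held most matches to the loose pattern TGANNNNGC, Srxn1, did not pass the test at either time. The Nqo1 window held none within these 250 bases, and bases further upstream were not searched for any gene. A match is a description of letters in these windows and not a bound site.

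**Figure D1:**
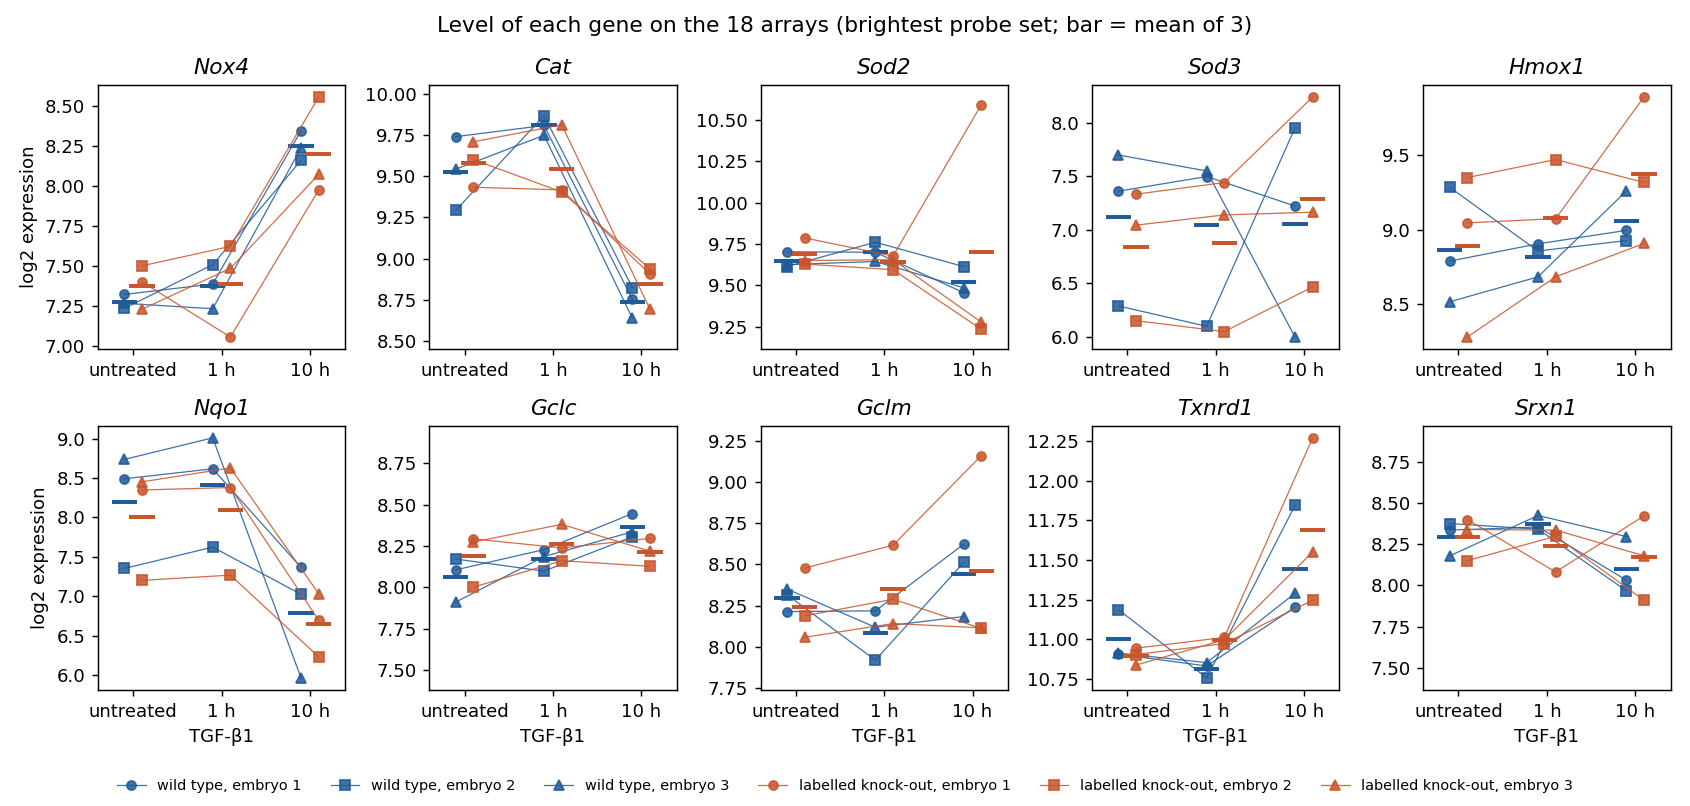
Level of each gene on the 18 arrays. The y axis is log2 expression of the brightest probe set, on its own scale for each gene, and the x axis is the time with TGF-β1; lines join the arrays labelled as the same embryo and bars are means of 3. Nox4 is higher and Cat lower at 10 h on every array, and the 10 h array of knock-out embryo 1 stands alone for Sod2 at 10.59.

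After 1 h of TGF-β1, 0 of the 10 genes passed limma in wild type, where 0.585% of all tested genes did and 940 had an unadjusted p under 0.05. The count was also 0 of 10 in the labelled knock-out, beside 0.49% of all tested genes and 512 with an unadjusted p under 0.05. The median difference of the 10 genes was 0.07 in wild type and 0.05 in the labelled knock-out, against -0.01 for all tested genes in both. Cat came nearest in wild type. It read 9.74, 9.29 and 9.54 in untreated embryos 1, 2 and 3 and 9.81, 9.87 and 9.75 after 1 h. All 3 embryos were higher after 1 h and the groups did not overlap, though their nearest values all but met. Of all tested genes 15.5% were without overlap in this comparison. The difference was 0.28 ± 0.13 (limma adjusted p = 0.701, unadjusted 0.0432). The dimmer Cat probe set lay the other way, at 9.18, 9.05 and 9.18 untreated and 9.06, 8.91 and 8.93 after 1 h. Cat was at -0.04 ± 0.13 at 1 h in the labelled knock-out. The 1 h difference of Nox4 was 0.10 ± 0.15 in wild type and 0.01 ± 0.15 in the labelled knock-out, with 95% intervals of -0.22 to 0.43 and -0.31 to 0.33.

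After 10 h, 4 of the 10 genes had changed in each genotype. In wild type 2 rose (Nox4 and Gclc), beside 14.9% of all tested genes, and 2 fell (Cat and Nqo1), beside 18.8%. As many rose in the labelled knock-out (2, Nox4 and Txnrd1), beside 13.9% of all tested genes, and 2 fell (Cat and Nqo1), beside 20.7%. Against these shares the counts of members stand close to the background, and the median difference of the 10 genes was 0.04 in wild type and 0.12 in the labelled knock-out, against 0.01 and -0.03 for all tested genes. The untreated and 10 h groups did not overlap for 5 of the 10 in wild type, beside 44.3% of all tested genes. In the labelled knock-out they did not for 4, beside 45.1%, so a lack of overlap was common. Without the 10 h arrays of wild-type embryos 2 and 3 the wild-type differences were 1.07 for Nox4, -0.77 for Cat, -0.83 for Nqo1 and 0.38 for Gclc. The count in the labelled knock-out was again 4 without the 10 h array of knock-out embryo 1, with Sod2 in the place of Nqo1. Of all tested genes 12.3% were then called higher and 17.8% lower in the labelled knock-out.

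**Figure D2:**
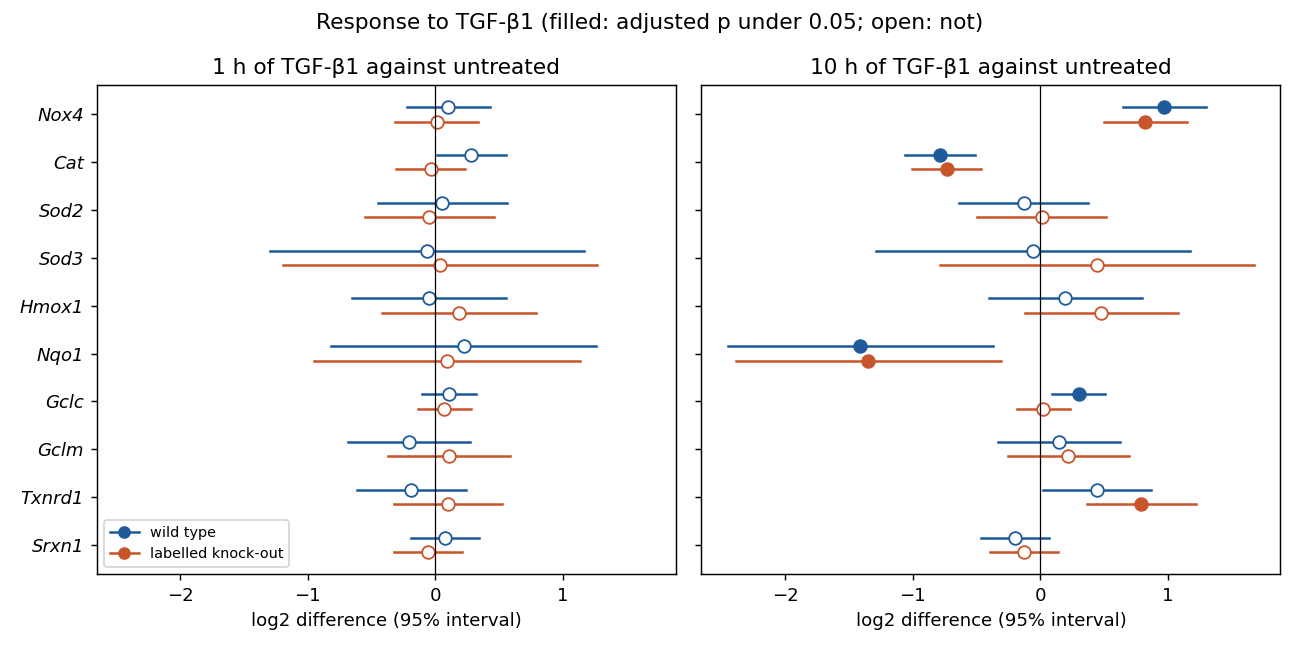
Difference from untreated cells after 1 h (left) and 10 h (right) of TGF-β1 for each gene, as log2 with the 95% interval from limma, in wild type and labelled knock-out; filled points had an adjusted p under 0.05. No point is filled at 1 h, and at 10 h Nox4 (0.97 and 0.82), Cat (-0.78 and -0.73) and Nqo1 (-1.41 and -1.35) are filled in both genotypes.

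Nox4, the oxidase of the group, read 7.32, 7.24 and 7.27 in untreated wild-type embryos 1, 2 and 3, 7.39, 7.51 and 7.23 after 1 h, and 8.35, 8.16 and 8.24 after 10 h. Labelled knock-out embryos read 7.40, 7.50 and 7.23 untreated, 7.06, 7.62 and 7.49 after 1 h, and 7.98, 8.56 and 8.07 after 10 h. Each of the 6 values at 10 h lay above each of the 12 earlier values, while the untreated and 1 h groups overlapped. The rise at 10 h was 0.97 ± 0.15 in wild type (limma adjusted p = 1.6e-04) and 0.82 ± 0.15 in the labelled knock-out (limma adjusted p = 5.9e-04). Among all tested genes these ranked 333 and 527 by size of the rise. The second Nox4 probe set rose by 1.02 ± 0.19 and 0.84 ± 0.19 (limma adjusted p = 9.9e-04 and 0.0039 over all single-symbol probe sets). The rise passed in each of 19 alternative analyses in both genotypes, with differences of 0.95 to 1.07 in wild type and 0.71 to 0.95 in the labelled knock-out. From 1 h to 10 h the difference was 0.87 ± 0.15 and 0.81 ± 0.15. The order of the group means from high to low was wild type at 10 h, labelled knock-out at 10 h, then labelled knock-out at 1 h and untreated and wild type at 1 h and untreated. Neighbours in that order overlapped except across the step between the 10 h groups and the rest. The CAGACA match in the Nox4 window printed above is of a kind found in 17.1% of windows.

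Catalase, which removes hydrogen peroxide, went the opposite way. In wild type Cat read 8.75, 8.82 and 8.64 after 10 h, against the untreated 9.74, 9.29 and 9.54 given above. The labelled knock-out read 9.43, 9.60 and 9.71 untreated, 9.42, 9.40 and 9.81 after 1 h, and 8.91, 8.94 and 8.69 after 10 h. All 6 values at 10 h lay below all 12 earlier values. The fall was -0.78 ± 0.13 in wild type (limma adjusted p = 2.3e-04) and -0.73 ± 0.13 in the labelled knock-out (limma adjusted p = 3.6e-04), and it passed in each of 19 alternatives in both. The second probe set fell by 0.59 ± 0.12 and by 0.53 ± 0.12 (limma adjusted p = 0.0015 and 0.0029 over all single-symbol probe sets). Counted from 1 h, where the wild-type values of the leading probe set were highest, the fall was -1.07 ± 0.13 in wild type, or 2.10-fold, and -0.70 ± 0.13 in the labelled knock-out. The second probe set did not show the larger fall in wild type. Its mean went from 8.97 at 1 h to 8.55 at 10 h in wild type and from 9.01 to 8.48 in the labelled knock-out.

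Of the genes best known as NRF2 targets, Nqo1, which reduces quinones by a pair of electrons at once, moved most and varied most. In wild type it read 8.49, 7.35 and 8.74 untreated, 8.62, 7.62 and 9.01 after 1 h, and 7.37, 7.02 and 5.96 after 10 h. Its values in the labelled knock-out were 8.35, 7.20 and 8.45 untreated, 8.38, 7.27 and 8.63 after 1 h, and 6.69, 6.23 and 7.03 after 10 h. Each embryo was lower at 10 h than untreated, but wild-type embryo 2 began low, so that the wild-type groups overlapped; the groups of the labelled knock-out did not. Embryo 2 was lowest in both genotypes in untreated cells and after 1 h, and lowest at 10 h in the labelled knock-out, whereas embryo 3 was lowest in wild type at 10 h. The fall was -1.41 ± 0.49 in wild type (limma adjusted p = 0.0361) and -1.35 ± 0.49 in the labelled knock-out (limma adjusted p = 0.0428). With embryo as a block, which takes up the differences between embryos, limma's adjusted p for Nqo1 was 0.0073 and 0.0091. The spread between wild-type embryos depends on which array belongs to which embryo. With the 10 h arrays of embryos 2 and 3 exchanged their changes were -1.39 and -1.71, in place of -0.33 and -2.78. The block then gave a limma adjusted p of 5.3e-06 in wild type and 7.2e-06 in the labelled knock-out. The exchange was added after the low correlations of these same arrays had been seen. Its p-values are therefore not separate support for the fall. Without wild-type embryo 1 the wild-type fall was -1.55 (limma adjusted p = 0.0872), without embryo 3 it was -0.73 (limma adjusted p = 0.351), and without the 10 h arrays of wild-type embryos 2 and 3 it was -0.83 (limma adjusted p = 0.444). The call in the labelled knock-out was lost without knock-out embryo 1 (limma adjusted p = 0.215) or 3 (limma adjusted p = 0.144), and without the 10 h array of embryo 1 alone the fall was -1.37 (limma adjusted p = 0.0809). Leaving out embryo 1 of the other genotype, which changes only the pooled spread, gave 0.0570 in wild type and 0.0571 in the labelled knock-out as limma's adjusted p. From 1 h to 10 h Nqo1 fell by 1.63 ± 0.49 in wild type and by 1.44 ± 0.49 in the labelled knock-out (limma adjusted p = 0.0173 and 0.0327). Without the same arrays these became -1.05 in wild type and -1.46 in the labelled knock-out (limma adjusted p = 0.322 and 0.0664). Nqo1 had a single probe set, so no second set of probes speaks to this fall.

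**Figure D3:**
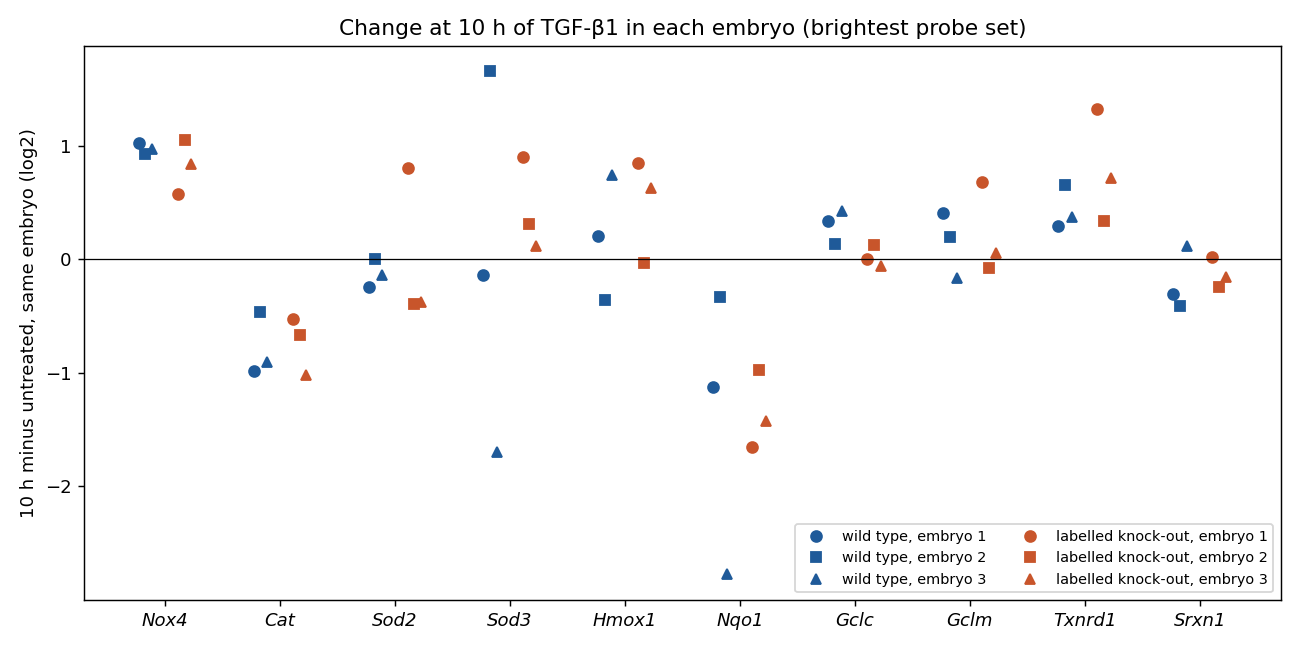
Change from untreated to 10 h of TGF-β1 within each embryo, as log2 difference of the brightest probe set; each point is 1 embryo as labelled. All 6 embryos lie above 0 for Nox4 and Txnrd1 and below 0 for Cat and Nqo1, and as labelled wild-type embryos 2 and 3 lie far apart for Sod3 (1.66 and -1.70) and Nqo1 (-0.33 and -2.78). With their 10 h arrays exchanged the pairs would be -0.29 and 0.25 for Sod3 and -1.39 and -1.71 for Nqo1.

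Txnrd1, the selenoprotein that keeps thioredoxin reduced in the cytosol, read 10.90, 11.19 and 10.91 in untreated wild type, 10.83, 10.76 and 10.85 after 1 h, and 11.20, 11.84 and 11.29 after 10 h. Values in the labelled knock-out were 10.94, 10.90 and 10.84 untreated, 11.01, 10.97 and 10.996 after 1 h, and 12.27, 11.25 and 11.55 after 10 h. The values at 10 h lay above the untreated ones without overlap in both genotypes, and that of knock-out embryo 1 was the highest of all. The difference was 0.79 ± 0.20 in the labelled knock-out, or 1.73-fold (limma adjusted p = 0.0058), and 0.44 ± 0.20 in wild type, which did not pass (limma adjusted p = 0.0992). With the 10 h array of knock-out embryo 1 left out, the labelled knock-out was at 0.50 (limma adjusted p = 0.0239) and the wild-type difference, whose values do not change, passed (limma adjusted p = 0.0230). Without the 10 h arrays of wild-type embryos 2 and 3 the wild-type difference was 0.20 (limma adjusted p = 0.655). Without all arrays of knock-out embryo 1 the difference in the labelled knock-out was 0.53 (limma adjusted p = 0.0547), and with the probe sets of a gene averaged it was 0.96 (limma adjusted p = 0.0550). The test of the difference between the genotypes gave 0.35 ± 0.28 (limma adjusted p = 0.999), so the calls do not show that Txnrd1 responded unequally. From 1 h to 10 h it rose in both, by 0.63 ± 0.20 and 0.70 ± 0.20 (limma adjusted p = 0.0231 and 0.0137). That rise was 0.39 in wild type without the 10 h arrays of embryos 2 and 3 and 0.40 in the labelled knock-out without the 10 h array of embryo 1, and neither passed (limma adjusted p = 0.350 and 0.0673). With only the groups compared the latter rise did not pass either (limma adjusted p = 0.0632).

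The other 2 Txnrd1 probe sets did not pass in either genotype. The brighter of them read 5.72, 7.60 and 7.30 in untreated wild type and 7.79, 8.54 and 7.55 after 10 h. Labelled knock-out arrays gave 7.31, 7.63 and 5.86 untreated and 9.21, 7.50 and 7.84 after 10 h. Its embryos differed by more than 1 log2 unit before treatment, and the groups overlapped. The differences were 1.08 ± 0.61 and 1.25 ± 0.61, and those of the dimmest set 0.54 ± 0.36 and 0.83 ± 0.36 (limma adjusted p = 0.102 or higher in these 4 tests over all single-symbol probe sets).

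Glutamate-cysteine ligase makes the dipeptide from which glutathione is built. Gclc, its catalytic subunit, read 8.11, 8.17 and 7.91 in untreated wild type, 8.23, 8.10 and 8.19 after 1 h, and 8.45, 8.31 and 8.34 after 10 h. The labelled knock-out arrays read 8.29, 8.001 and 8.27 untreated, 8.24, 8.16 and 8.38 after 1 h, and 8.30, 8.13 and 8.22 after 10 h. The wild-type groups did not overlap and those of the labelled knock-out did. Gclc rose by 0.30 ± 0.10 in wild type, or 1.23-fold (limma adjusted p = 0.0279), and was at 0.02 ± 0.10 in the labelled knock-out (limma adjusted p = 0.884). The difference between the 2 responses was -0.28 ± 0.14 (limma adjusted p = 0.999, unadjusted 0.0665). The wild-type call was lost when only the arrays compared were fitted (limma adjusted p = 0.0881), without wild-type embryo 1 (limma adjusted p = 0.135) or 3 (limma adjusted p = 0.188), and without the 10 h arrays of wild-type embryos 2 and 3 (limma adjusted p = 0.0797). The second Gclc probe set was at 0.29 ± 0.16 and -0.03 ± 0.16 and did not pass. Gclm, the modifier subunit, read 8.21, 8.32 and 8.35 untreated and 8.62, 8.51 and 8.18 after 10 h in wild type, and 8.48, 8.19 and 8.06 against 9.16, 8.11 and 8.12 in the labelled knock-out. The groups overlapped, and knock-out embryo 1 was the highest at 10 h. The differences were 0.15 ± 0.22 and 0.22 ± 0.22 (limma adjusted p = 0.645 and 0.493), the latter at -0.13 without that array. The dimmer Gclm probe set lay the other way. Its mean was 5.53 untreated and 5.29 after 10 h in wild type, and 5.48 and 5.33 in the labelled knock-out, with overlapping groups in both.

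Hmox1, which breaks down haem, read 8.79, 9.29 and 8.52 untreated and 8.996, 8.93 and 9.26 after 10 h in wild type. Hmox1 in the labelled knock-out read 9.05, 9.35 and 8.28 untreated and 9.89, 9.32 and 8.91 after 10 h. The groups overlapped in both genotypes, and the untreated embryos of the labelled knock-out differed by more than 1 log2 unit. The differences were 0.20 ± 0.28 and 0.48 ± 0.28 (limma adjusted p = 0.618 and 0.214), and without the 10 h array of knock-out embryo 1 the latter was 0.22. In the labelled knock-out limma's adjusted p for Hmox1 was 0.0730 with embryo as a block. It was 0.0300 with that block and the wild-type 10 h arrays 2 and 3 exchanged. That exchange was added after seeing the data and leaves the labelled knock-out values as they were. Srxn1, which repairs overoxidised peroxiredoxins, read 8.34, 8.38 and 8.18 untreated and 8.03, 7.97 and 8.30 after 10 h in wild type, and 8.40, 8.15 and 8.34 against 8.42, 7.91 and 8.18 in the labelled knock-out. These groups overlapped too. The differences were -0.20 ± 0.13 and -0.13 ± 0.13 (limma adjusted p = 0.239 and 0.486), with 95% intervals of -0.46 to 0.07 and -0.39 to 0.14, and the other 3 Srxn1 probe sets did not pass either. The 3 antioxidant response cores in the Srxn1 window printed above stand beside these values.

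The superoxide dismutases did not pass in either genotype with the groups fitted to all arrays. Sod2, the mitochondrial enzyme, read 9.70, 9.61 and 9.62 untreated, 9.70, 9.76 and 9.64 after 1 h, and 9.46, 9.61 and 9.48 after 10 h in wild type. In the labelled knock-out it read 9.79, 9.63 and 9.65 untreated, 9.68, 9.59 and 9.65 after 1 h, and 10.59, 9.23 and 9.28 after 10 h. Knock-out embryo 1 was high at 10 h by 1.32 over the next array, while the other 2 embryos were below every other array of either genotype. The difference in the labelled knock-out was 0.01 ± 0.24 (limma adjusted p = 0.979) with that array and -0.43 (limma adjusted p = 0.0013) without it, so the sign and the call of Sod2 rest on 1 array. The same array was high on the next 2 Sod2 probe sets, at 10.35 against 8.997 and 9.02 and at 7.36 against 5.95 and 5.82. Among the 13679 genes its gap for Sod2 over the next array of the group ranked 103. The part of the inflammatory genes that were high on that array was not tested. In wild type Sod2 was at -0.13 ± 0.24 (limma adjusted p = 0.704), with embryos 1 and 3 lower and embryo 2 level to 2 decimals.

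Sod3, the secreted enzyme, differed more between embryos than between conditions. In wild type it read 7.36, 6.29 and 7.70 untreated, 7.50, 6.10 and 7.55 after 1 h, and 7.22, 7.95 and 6.00 after 10 h. Arrays of the labelled knock-out gave 7.33, 6.15 and 7.04, then 7.44, 6.05 and 7.14, then 8.24, 6.47 and 7.16. Embryo 2 was the lowest in 5 of the 6 groups, and in wild type at 10 h embryo 3 was lowest and embryo 2 highest. The second Sod3 probe set showed the same exchange, at 5.94, 5.36 and 6.58 untreated and 6.17, 6.70 and 5.49 after 10 h in wild type. The differences at 10 h were -0.06 ± 0.58 and 0.45 ± 0.58 (limma adjusted p = 0.949 and 0.602), and the 95% intervals, -1.29 to 1.17 and -0.78 to 1.68, hold changes of more than 2-fold in wild type in both directions. Without the 10 h array of knock-out embryo 1 the second difference was -0.03. With the embryo block in which the wild-type 10 h arrays 2 and 3 are exchanged, Sod3 passed in the labelled knock-out against untreated (limma adjusted p = 0.0301) and against 1 h (limma adjusted p = 0.0442). This setting was added after seeing the data and leaves the labelled knock-out values as they were. The 10 h arrays of wild-type embryos 2 and 3, which change places here, are those with the low correlations given above, and which embryo each came from was not tested further.

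**Figure D4:**
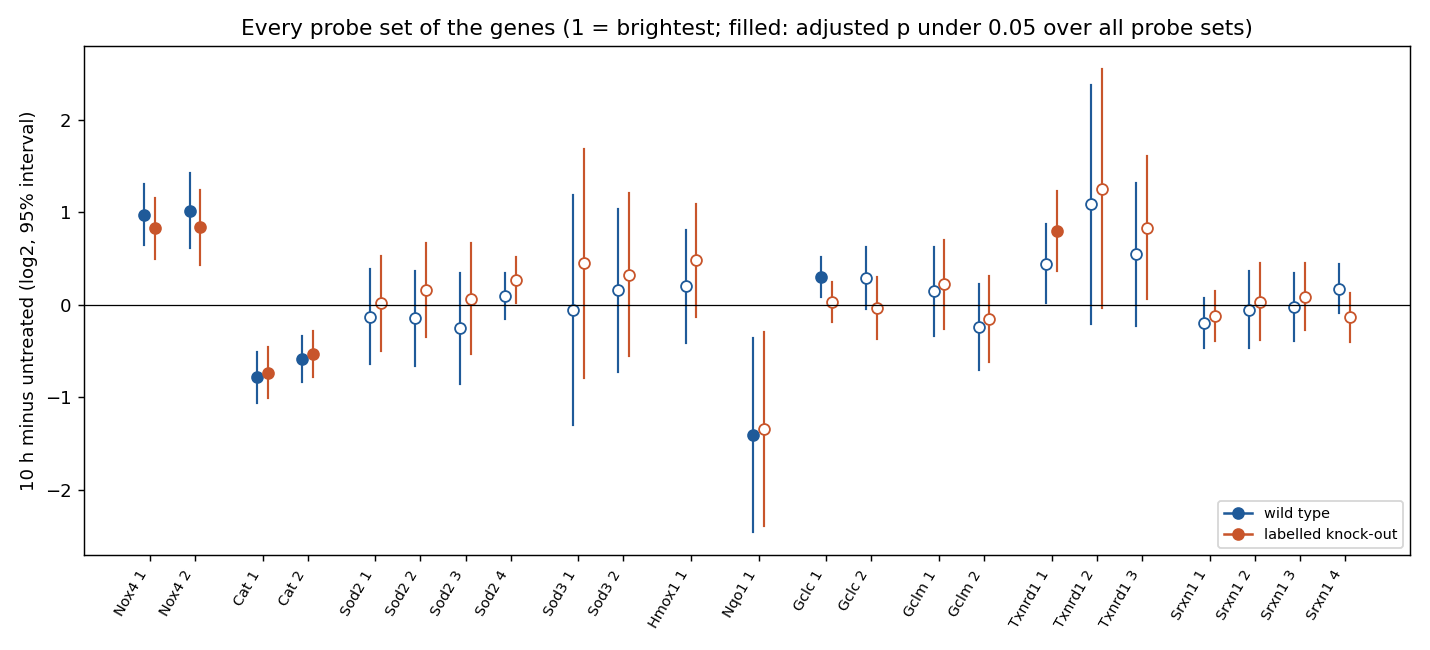
Difference from untreated cells after 10 h of TGF-β1 for all 23 probe sets, as log2 with the 95% interval, numbered from the brightest within each gene; filled points had an adjusted p under 0.05 over all single-symbol probe sets. Both sets of Nox4 and of Cat are filled in both genotypes, and Nqo1 is filled in wild type only (limma adjusted p = 0.0436 and 0.0520).

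From 1 h to 10 h the same number of genes passed. In wild type 2 of the 10 rose, beside 15.3% of all tested genes, and 2 fell, beside 18% of them. The labelled knock-out had 2 rises, beside 13.7%, and 2 falls, beside 19.7%. The genes were Nox4 and Txnrd1 among the rises and Cat and Nqo1 among the falls in both genotypes.

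The genotypes did not differ detectably in any of the 10 genes. In untreated cells 0% of all tested genes and 0 of the 10 passed limma (460 genes had an unadjusted p under 0.05), and the 10 differences lay between -0.27 and 0.13. At 1 h they lay between -0.33 and 0.26 with 0% called (846 genes under 0.05 unadjusted) and at 10 h between -0.15 and 0.31 with 0% called (721 genes). Over the mean of the 3 conditions per embryo they lay between -0.22 and 0.20 with 0% called (659 genes), and there the 95% interval lay within 2-fold for all 10 genes. In each of the separate conditions it did so for 8. None of the 10 genes had an unadjusted p under 0.05 in these 6 comparisons, and the smallest was that of Cat at 1 h, at -0.26 ± 0.13 (limma adjusted p = 0.824, unadjusted 0.0577). Nox4 differed by 0.10 ± 0.15 untreated, 0.01 ± 0.15 at 1 h and -0.05 ± 0.15 at 10 h, and by 0.02 ± 0.11 over the embryo means, with a 95% interval of -0.24 to 0.28. The test of the genotype difference in the response itself passed for 0 of the 10 genes and 0% of all at 1 h (233 genes with an unadjusted p under 0.05) and for 0 of 10 and 0% of all at 10 h (305 genes). For Nox4 the 10 h responses differed by -0.15 ± 0.22 (interval -0.61 to 0.31) and for Cat by 0.05 ± 0.18 (interval -0.34 to 0.44). The interval was widest for Sod3, from -1.23 to 2.25.

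The surroundings of these genes were read from lists of related genes. At 10 h the share of all tested genes called was 14.9% higher and 18.8% lower in wild type and 13.9% and 20.7% in the labelled knock-out. Among 17 tested NRF2 targets and NADPH-supplying enzymes other than the 10, 0 rose and 10 fell in wild type, and 1 rose and 8 fell in the labelled knock-out. Their median difference was -0.50 and -0.39, against 0.01 and -0.03 for all tested genes. Idh1, a cytosolic NADPH source, read 11.01, 11.15 and 10.95 untreated and 9.78, 9.38 and 9.95 after 10 h in wild type. The epoxide hydrolase gene Ephx1 read 10.95, 11.01 and 11.23 against 9.71, 9.81 and 9.60. Every 10 h array was below every untreated one for both genes, where 44.3% of all tested genes had no overlap in either direction. They fell by 1.34 ± 0.18 and 1.36 ± 0.10 in wild type, and the malic enzyme gene Me1 fell by 0.68 ± 0.10 and the carbonyl reductase gene Cbr1 by 0.66 ± 0.08. In wild type 7 of the 17 fell without the 10 h arrays of embryos 2 and 3, a setting in which the shares of all tested genes called also dropped, to 7.28% higher and 11.1% lower.

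The regulators of NRF2 moved in both directions. Of 10 tested, 3 rose and 1 fell in wild type, beside 14.9% and 18.8% of all tested genes. In the labelled knock-out 3 rose and 2 fell, beside 13.9% and 20.7%. The medians were 0.21 in wild type and 0.20 in the labelled knock-out. The 3 that rose were the small MAF genes, whose proteins pair with NRF2 or BACH1 on the antioxidant response element. Maff read 5.68, 6.36 and 5.79 untreated and 7.78, 7.57 and 7.68 after 10 h in wild type, a rise of 1.73 ± 0.21 (1.89 ± 0.21 in the labelled knock-out). Mafk rose by 0.71 ± 0.10 and 0.58 ± 0.10 at 10 h. It also passed at 1 h, at 0.64 ± 0.10 and 0.58 ± 0.10 (limma adjusted p = 0.0053 and 0.0173), though not with only the groups compared, nor without wild-type embryo 1 or 3 in wild type or any knock-out embryo in the labelled knock-out. Mafg rose by 0.49 ± 0.12 and 0.47 ± 0.12. Nfe2l2, which encodes NRF2, was at -0.23 ± 0.12 and -0.00 ± 0.12, and Keap1 at -0.28 ± 0.14 and -0.39 ± 0.14, the latter past the threshold (limma adjusted p = 0.0450). Cul3, the ubiquitin ligase scaffold that works with KEAP1, fell by 0.30 ± 0.09 in wild type, and Bach1 by 0.68 in the labelled knock-out (limma adjusted p = 0.0137). Without the 10 h arrays of wild-type embryos 2 and 3 the wild-type median was 0.07. Leaving out the 10 h array of knock-out embryo 1 gave 3 higher and 1 lower in the labelled knock-out. The shares of all tested genes were then 12.3% higher and 17.8% lower.

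The other peroxide-removing and glutathione genes fell more often than they rose. So did all tested genes, with 18.8% lower and 14.9% higher in wild type and 20.7% and 13.9% in the labelled knock-out. Of 15 other dismutase and peroxidase genes 1 rose and 7 fell in wild type and 1 rose and 6 fell in the labelled knock-out, with medians of -0.19 and -0.28. The sestrin genes Sesn3 and Sesn1 fell by 1.73 ± 0.22 and 1.39 ± 0.23 in wild type. Gpx4, which reduces lipid peroxides, read 12.30, 12.26 and 12.18 untreated and 11.88, 11.85 and 11.84 after 10 h, a fall of 0.39 ± 0.07, and the peroxiredoxin gene Prdx2 fell by 0.41 ± 0.08. The member that rose was Pxdn, which encodes peroxidasin of the extracellular matrix (0.48 ± 0.12 and 0.55 ± 0.12). Of 21 other glutathione genes 3 rose and 7 fell in each genotype, with medians of -0.24 and -0.34. Mgst1, a membrane glutathione transferase, fell by 1.69 ± 0.20, the transferase gene Gstm1 by 0.83 ± 0.16, and Gsr, which regenerates reduced glutathione, by 0.82 ± 0.10 in wild type. The 3 that rose were Slc3a2, a subunit of the cystine importer (0.53 ± 0.10), Gss, the second enzyme of glutathione synthesis (0.52 ± 0.11), and Chac1, which breaks glutathione down (1.1997 ± 0.23). The wild-type counts without the 10 h arrays of embryos 2 and 3 were 0 higher and 4 lower of 15 and 1 higher and 4 lower of 21, beside 7.28% higher and 11.1% lower of all tested genes.

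Among 9 other thioredoxin genes 2 rose and 0 fell in wild type, beside 14.9% and 18.8% of all tested genes. In the labelled knock-out 2 rose and 1 fell, beside 13.9% and 20.7%. The medians were 0.18 in wild type and 0.13 in the labelled knock-out. Txn2, the mitochondrial thioredoxin, rose by 0.47 ± 0.10 and 0.32 ± 0.10, and Txnl1, a thioredoxin-like protein gene, by 0.36 ± 0.09 and 0.30 ± 0.09. The thioredoxin-binding protein gene Txnip was lower at 1 h in all 6 embryos, at -1.03 ± 0.26 in wild type and -0.80 ± 0.26 in the labelled knock-out (limma adjusted p = 0.131 and 0.506). With embryo as a block it passed in wild type (limma adjusted p = 0.0101) and not in the labelled knock-out (0.0630). At 10 h Txnip was at -0.53 ± 0.26 and the methionine sulfoxide reductase gene Msrb1 at 0.33 ± 0.16 in wild type, and neither passed. With embryo as a block 4 rose and 1 fell in wild type, beside 17.5% higher and 22.6% lower of all tested genes. In the labelled knock-out 3 rose and 1 fell with that block, beside 16.0% and 24.2%. The labelled knock-out without the 10 h array of embryo 1 had 0 rises and 1 fall, and without the 10 h arrays of wild-type embryos 2 and 3 the wild type had 0 and 0. The shares of all tested genes were then 12.3% higher and 17.8% lower in the labelled knock-out and 7.28% and 11.1% in wild type. A further list held 16 tested peroxisome genes, which make the organelle where catalase works. In wild type 0 rose and 6 fell, beside 14.9% and 18.8% of all tested genes. In the labelled knock-out 0 rose and 7 fell, beside 13.9% and 20.7%. The medians were -0.15 in wild type and -0.26 in the labelled knock-out. Abcd3, a transporter of the peroxisomal membrane, fell by 0.54 ± 0.10 and 0.58 ± 0.10, Pex13, part of the protein import machinery, by 0.44 ± 0.08 and 0.72 ± 0.08, and the beta-oxidation enzyme gene Hsd17b4 by 0.37 ± 0.09 and 0.32 ± 0.09. Pex19 fell by 0.49 ± 0.14 in wild type and was at -0.25 ± 0.14 in the labelled knock-out. The number that fell in wild type was 3 without the 10 h arrays of embryos 2 and 3, beside the 11.1% of all tested genes.

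**Figure D5:**
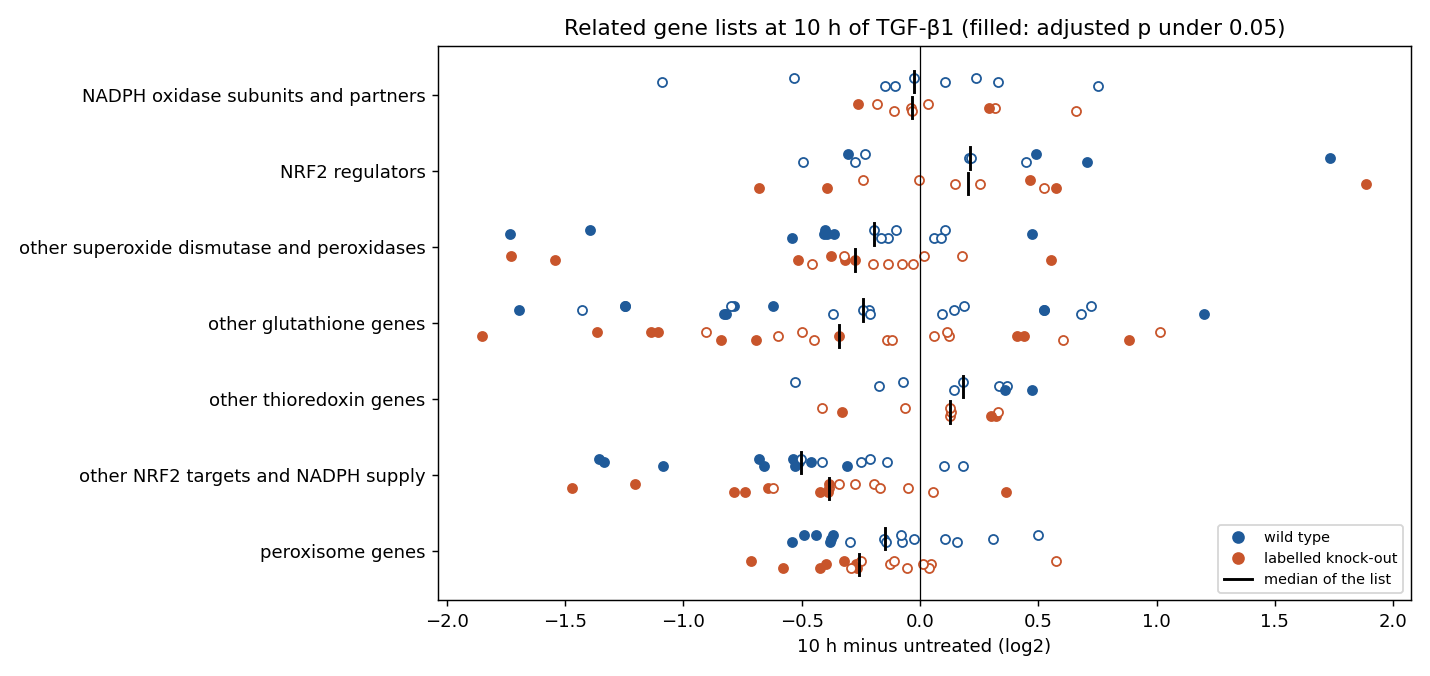
Differences from untreated cells after 10 h of TGF-β1 for the tested genes of 7 related lists, as log2; each point is 1 gene, filled where the adjusted p was under 0.05, with wild type above labelled knock-out and the median as a bar. The medians of the other NRF2 targets and NADPH supply are the lowest, at -0.50 and -0.39.

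Of the other NADPH oxidase genes few passed. Of 16 listed subunits and partners 9 were tested. At 10 h 0 rose and 0 fell in limma in wild type, beside 14.9% and 18.8% of all tested genes. With embryo as a block 1 rose and 2 fell there, beside 17.5% higher and 22.6% lower of all tested genes. Rac1, a small GTPase that activates other oxidases, rose by 0.29 in the labelled knock-out (limma adjusted p = 0.0306), and Noxo1 fell by 0.26 (limma adjusted p = 0.0344), and neither passed without the 10 h array of knock-out embryo 1. Cybb, the phagocyte oxidase, read 9.74, 7.85 and 7.62 untreated and 8.57, 6.21 and 7.17 after 10 h in wild type. The labelled knock-out values were 8.999, 6.69 and 7.64 untreated and 9.91, 6.37 and 6.93 after 10 h. Embryo 1 was highest in every group, as it was for the macrophage list given above, whose part in the level of Cybb was not tested. Its differences were -1.09 ± 0.92 and -0.04 ± 0.92 and did not pass, nor in wild type did the phagocyte oxidase genes Ncf1 (0.75 ± 0.59) and Rac2 (-0.53 ± 0.46) or Duoxa1 (0.24 ± 0.11).

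The genes whose pattern over the 18 arrays was most like that of Nox4, by Pearson correlation of log2 values among tested genes, were Slc41a2 (0.957), Ptar1 (0.954), Fermt2 (0.951), Zdhhc13 (0.949) and Rbfox1 (0.948). At 10 h in wild type they were higher by 1.63, 0.94, 0.77, 0.53 and 2.55. The arrays share embryos and treatment, so these values describe likeness and nothing more. Most like Cat were Erbin (0.971), Nid1 (0.965) and Gulp1 (0.962), and most like Nqo1 were Tmed10 (0.942), Fut11 (0.942) and Tmx4 (0.939). Most like Txnrd1 were Nfkbib (0.948), Nfkb2 (0.946) and Ccl20 (0.939), and most like Sod2 were Stx11 (0.958), Bcl3 (0.910) and Tnip1 (0.897). Ccl20 was among the genes highest on the 10 h array of knock-out embryo 1, at 10.57 against 6.22 and 6.67. Sod3 was most like Fndc1 (0.921), Fmod (0.916) and Igfbp2 (0.916), and Hmox1 most like Ifngr2 (0.848), Atp1b3 (0.839) and Kif3b (0.829). For Gclm they were Btg2 (0.843), Gsap (0.837) and Nfkbid (0.830), for Gclc Orc1 (0.811), Slc1a1 (0.750) and Runx3 (0.744), and for Srxn1 Fam120aos (0.811), Mrps21 (0.792) and 4833438C02Rik (0.782).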

How the data were processed

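RNA of 18 fibroblast cultures was measured on Affymetrix arrays. The authors deposited log2 values, 1 per probe set, from RMA per the submitters' processing notes, with the version not given in sources used here. RMA corrects background, normalises arrays to each other and combines probes, and so leaves levels of different probe sets not comparable. The values ran from 2.49 to 14.47 with array medians of 4.74 to 4.81, pairs of arrays of a group correlated at 0.987 to 0.995, and the number of arrays limits the precision. Of 45101 probe sets 34958 had a single symbol, 932 several and 9211 were not named in the annotation. The brightest single-symbol probe set stood for a gene.

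A mean per group was fitted to all 18 arrays with limma 3.58.1 in R 4.3.3 (12 residual degrees of freedom). Two-sided empirical Bayes tests were adjusted by Benjamini-Hochberg over 13679 genes. The fit was tested on simulated data with independent arrays and no embryo effect, so that test does not cover the pairing of the real arrays. There were 12 comparisons: 1 h and 10 h against untreated, 10 h against 1 h, the genotypes in each condition and over embryo means, and the difference of the responses. The genes named are the 10 members, up to 4 genes per list with the smallest p at 10 h in wild type, the controls, and the 5 genes most like Nox4 and 3 most like each other member; Rac1, Noxo1, Keap1, Nfe2l2, Bach1, Pxdn, Gss and Chac1 were named after their values were seen. The members, lists and tests were chosen with earlier results of these data known. Replicates were separate embryos, and within a genotype same-numbered arrays share an embryo per the labels, which pairs them; deviations of untreated and 1 h arrays correlated at 0.592 to 0.763. Beside this fit 17 other settings were chosen with the design, and 3 were added after seeing the data (leaving out the knock-out 10 h array 1, leaving out the wild-type 10 h arrays 2 and 3, and exchanging the latter in the block). Genes with no single-symbol probe set were not analysed here.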

Additional observations from a re-analysis of the deposited data

Results flagged for a closer look

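Txnrd1 was lower after 1 h of TGF-β1 in all 3 wild-type embryos, with a mean difference of -0.19 on the log2 scale, and higher in all 3 labelled knock-out embryos, with a mean of 0.10. It is listed because, on the leading probe set, every embryo of each genotype moved opposite to every embryo of the other. The other Txnrd1 probe sets did not share this. On the dimmest, labelled knock-out embryos 1, 2 and 3 read 5.70, 5.69 and 5.08 untreated and 5.62, 5.65 and 4.92 after 1 h. On the brighter of them, wild-type embryo 1 was higher after 1 h, at 6.10 against 5.72. The difference between the responses was 0.29, and limma's test of that difference did not pass (adjusted p = 1.00), so a difference between the genotypes is not shown.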

How the results depend on the processing

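Over the 10 genes, 12 comparisons and all alternatives, 2154 values kept their direction and side of the threshold or were uncalled in both, 35 lost a call, 7 gained one and 4 changed sign and were called with or without the change. These 4 were Sod2 in the labelled knock-out without embryo 1 or its 10 h array: -0.38 and -0.43 against untreated, and -0.37 and -0.39 against 1 h, where the values with all arrays were 0.01 and 0.06; without each embryo in turn they ran from -0.38 to 0.22 and from -0.37 to 0.28. Nox4 and Cat kept their 10 h calls in all settings. Nqo1 against untreated did not pass in either genotype after quantile normalisation or with trended, robust variances, and in the labelled knock-out with no filter on dim probe sets. Txnrd1 in the labelled knock-out did not pass with probe sets averaged, nor against 1 h with only the groups compared. Against 1 h it did not pass in either genotype with probe sets averaged, or without wild-type embryo 2 or 3 or knock-out embryo 1 or 3 in the genotype concerned, or in the labelled knock-out without its 10 h array of embryo 1. Of the 4 wild-type genes called at 10 h against untreated, 2 passed when only the groups compared were fitted. Without each embryo in turn 2 to 4 passed in wild type and 3 to 4 in the labelled knock-out. In wild type 5 passed without the single knock-out 10 h array of embryo 1, beside 15.2% higher and 19.3% lower of all tested genes. At 10 h against 1 h, 2 to 5 passed in wild type and 2 to 4 in the labelled knock-out without each embryo in turn. The shares of all tested genes without each embryo are not given here. Without the wild-type 10 h arrays of embryos 2 and 3 the wild-type differences of Nqo1 and Gclc against untreated were -0.83 and 0.38. With an alternative lacking both those arrays the lone wild-type 10 h array is assumed to vary like the other groups.

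With embryo as a replicate block 4 genes passed at 10 h against untreated and 4 at 10 h against 1 h in each genotype, and 0 at 1 h, so the pairing changed no call of a member. Of all tested genes 40.1% passed at 10 h against untreated with that block in wild type and 40.3% in the labelled knock-out, so 4 of 10 stands at the background. A further alternative, added after seeing the data, exchanged 10 h arrays 2 and 3 of wild type in the block. In the labelled knock-out 6 genes then passed at 10 h against untreated, with Hmox1 and Sod3 added. Against 1 h 5 passed, with Sod3 added. The labelled knock-out differences of Hmox1 and Sod3 against untreated stayed at 0.48 and 0.45, since the exchange changes only the pooled spread there. The share of all tested genes passing at 10 h with this exchange is not given here. Replicate numbers across genotypes mark different embryos and correlated between -0.20 and 0.541; a block on them gave 0 members in each condition, and 1 gene of all at 1 h and 6 at 10 h. Of all tested genes 80 passed at 1 h in wild type, 47 with only the groups compared, 38 to 48 without a wild-type embryo and 149 with the exchanged block. For the labelled knock-out the 67 became 39, 26 to 36, and 117, with 101 under the embryo block and 104 of all probe sets. At 10 h 4614 passed in wild type, 2516 without arrays 2 and 3 and 6932 of all probe sets; against 1 h it was 4556, 2256 and 6916. In the labelled knock-out 4571 passed at 10 h against 1 h and 3037 without embryo 1, and the genotypes at 10 h gave 1 gene without knock-out embryo 2.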
